A study of Mus musculus with 6 samples.

Results

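Genes that mark regulatory T cells and genes for the checkpoint receptors of activated T cells were read in the T cells of mouse back skin, from single-cell RNA sequencing of whole dorsal skin. They were Foxp3, Il2ra, Ctla4, Icos, Tnfrsf4, Tnfrsf18, Ikzf2, Pdcd1, Lag3 and Tigit, taken by symbol, which is 10 of the 31053 genes in the count tables. They were measured in CD3+ barcodes, that is, cell barcodes with at least 1 UMI (unique molecular identifier, 1 counted RNA molecule) of the T cell receptor chain genes Cd3d, Cd3e and Cd3g together. There were 3385 CD3+ barcodes among 50850 barcodes that passed the study's limits, in 6 libraries. All mice were female C57BL/6, 8 to 10 weeks old. The Sham group was untreated. The IMQ group had a 5% imiquimod cream, 62.5 mg a day, put on the shaved back for 4 days, which induces a psoriasis-like inflammation, and was killed the day after the last dose. The IMQ+SHP099 group received the same cream and 10 mg/kg of SHP099, which inhibits the phosphatase SHP2 allosterically, by the intragastric route daily for what the labels call a further 4 days, and the labels do not say how these days lay relative to the cream. Each group had 2 libraries, each library was a pool of several mice, and the cells were not sorted.

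Regulatory T cells are CD4 T cells that restrain other immune cells, and the transcription factor FOXP3 sets their programme. They carry the high-affinity interleukin 2 receptor chain (Il2ra), the inhibitory receptor CTLA-4, the costimulatory receptors ICOS, OX40 (Tnfrsf4) and GITR (Tnfrsf18), and often the transcription factor Helios (Ikzf2), and they are common in resting skin, where they lie close to hair follicles. PD-1 (Pdcd1), LAG-3 (Lag3) and TIGIT (Tigit) are inhibitory receptors that T cells of many kinds put on their surface after activation, and the tail of PD-1 can bind SHP2. Mouse skin also holds many gamma-delta T cells, which use another T cell receptor (constant chain Trdc) and include the main producers of interleukin 17 in imiquimod-treated skin.

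The libraries held 53913865 to 188283327 UMIs each, and their CD3+ barcodes 2042391 to 8296251. Sham 1 had 767 CD3+ barcodes and Sham 2 had 512. IMQ 1 had 782 and IMQ 2 had 288. IMQ+SHP099 1 had 541 and IMQ+SHP099 2 had 495. The median CD3+ barcode held between 2891 and 4760.5 UMIs in 5 libraries but 1352 in IMQ+SHP099 1, which therefore stood apart, and 155 of its 541 CD3+ barcodes reached 2000 UMIs. Between 14 and 43 barcode sequences were shared by any pair of libraries, and 1 CD3+ barcode in all. Levels are given as CPM, the UMIs of a gene per 1000000 UMIs of all genes summed over the same barcodes. RNA of other cell types was present in the gate. The summed level of the 8 myeloid markers was 733 and 851 CPM in Sham, 11024 and 15368 with IMQ, and 22447 and 6187 with IMQ+SHP099. The 4 keratinocyte markers summed to between 2056 and 16594 CPM over the 6 libraries. Their part in the results was tested only by leaving out the barcodes in which such markers took over 1% of UMIs.

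The genes differed in how far their RNA lay inside the CD3+ gate. Of the UMIs of Ctla4 95.0% were in CD3+ barcodes, of Foxp3 90.5%, of Pdcd1 90.3%, of Icos 87.0%, of Tigit 78.9% and of Il2ra 73.4%. The share was 33.7% for Lag3, 31.5% for Tnfrsf4, 17.3% for Ikzf2 and 10.5% for Tnfrsf18. In keratin-rich barcodes, which should lack a T cell gene, Foxp3 was found in 0.0183% to 0.233% of barcodes by library and Ctla4 in 0% to 0.383%. Tnfrsf18 was found there in 48.6% to 61.8%, Ikzf2 in 22.1% to 69.0% and Tnfrsf4 in 11.4% to 20.2%. The keratin-rich barcodes were deeper, with library medians of 9206 to 35501 UMIs. A single UMI of Tnfrsf18, Ikzf2 or Tnfrsf4 in a CD3+ barcode is therefore no sign by itself that the T cell expressed the gene.

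On the GRCm38 assembly, Foxp3 (ENSMUSG00000039521) lies on the plus strand of chromosome X, from 7573644 to 7595245. Ctla4 (ENSMUSG00000026011, chromosome 1, 60887000 to 60915832) and Icos (ENSMUSG00000026009, 60977927 to 61000320) are neighbours on the same strand, 62094 bases apart. Tnfrsf4 (ENSMUSG00000029075, chromosome 4, 156013843 to 156016612) and Tnfrsf18 (ENSMUSG00000041954, 156026164 to 156028895) are likewise neighbours, 9551 bases apart. Ikzf2 (ENSMUSG00000025997) and Pdcd1 (ENSMUSG00000026285) are also on chromosome 1, at 69531214 to 69687245 and 94038305 to 94052553. Il2ra (ENSMUSG00000026770) is on chromosome 2, at 11642807 to 11693193, Lag3 (ENSMUSG00000030124) on chromosome 6, at 124904361 to 124911705, and Tigit (ENSMUSG00000071552) on chromosome 16, at 43648867 to 43664146. The counts are of whole genes from their 3′ ends, so transcript forms such as soluble CTLA-4 cannot be told apart.

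Foxp3-positive barcodes, those with at least 1 Foxp3 UMI, were few in every library, 107 of the 3385 CD3+ barcodes in all. In the Sham group they were 18 of 767 (2.35%, exact 95% Clopper-Pearson interval 1.40 to 3.68) and 58 of 512 (11.3%, 8.71 to 14.4). In the IMQ group they were 14 of 782 (1.79%, 0.982 to 2.99) and 4 of 288 (1.39%, 0.380 to 3.52). In the IMQ+SHP099 group they were 6 of 541 (1.11%, 0.408 to 2.40) and 7 of 495 (1.41%, 0.570 to 2.89). These intervals cover counting error only. Sham 2 stood far above the other 5 libraries, and Sham 1 lay just above the 4 treated libraries with an interval that overlapped theirs.

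The mean share was 6.84% ± 6.35 (SD, n = 2) in Sham, 1.59% ± 0.284 (n = 2) in IMQ and 1.26% ± 0.216 (n = 2) in IMQ+SHP099. The difference between IMQ and Sham was -5.25 percentage points and its exact permutation p (two-sided) was 0.3333, the smallest that 2 libraries against 2 can give. Without Sham 2 the difference was -0.757 points, so its size rested on that library. When each barcode was thinned to 2000 UMIs and shallower barcodes were left out, the shares were 6 of 599 and 34 of 486 in Sham, 10 of 639 and 0 of 228 with IMQ, and 2 of 155 and 5 of 322 with IMQ+SHP099. The thinned difference was -3.22 points, and the Sham and IMQ libraries then overlapped. IMQ+SHP099 minus IMQ was -0.328 points (exact two-sided permutation p = 0.667), and the ranges of both groups overlapped, so no difference was detectable at this depth.

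The share depended on the denominator. Alpha-beta barcodes were taken as CD3+ barcodes with a UMI of Trac, Trbc1 or Trbc2 and none of Trdc. Of these, Foxp3-positive barcodes made up 12.1% and 29.4% in Sham, 6.22% and 3.39% with IMQ, and 5.43% and 3.95% with IMQ+SHP099. Both Sham libraries lay above all 4 others on this scale. The exact interval of Sham 1 (7.24 to 18.7) still overlapped those of all 4, and this share was not read in thinned barcodes. IMQ minus Sham was -16.0 points, again at the smallest exact permutation p of 0.3333. This difference was -7.34 points without Sham 2 and -24.6 points without Sham 1. Among barcodes with a Cd4 UMI, Foxp3 was found in 5 of 9 and 29 of 62 in Sham, 6 of 36 and 3 of 17 with IMQ, and 1 of 2 and 2 of 11 with IMQ+SHP099. A lower share can mean fewer Foxp3-expressing cells, less Foxp3 RNA per cell or more T cells of other kinds, which cannot be told apart here.

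**Figure D1:**
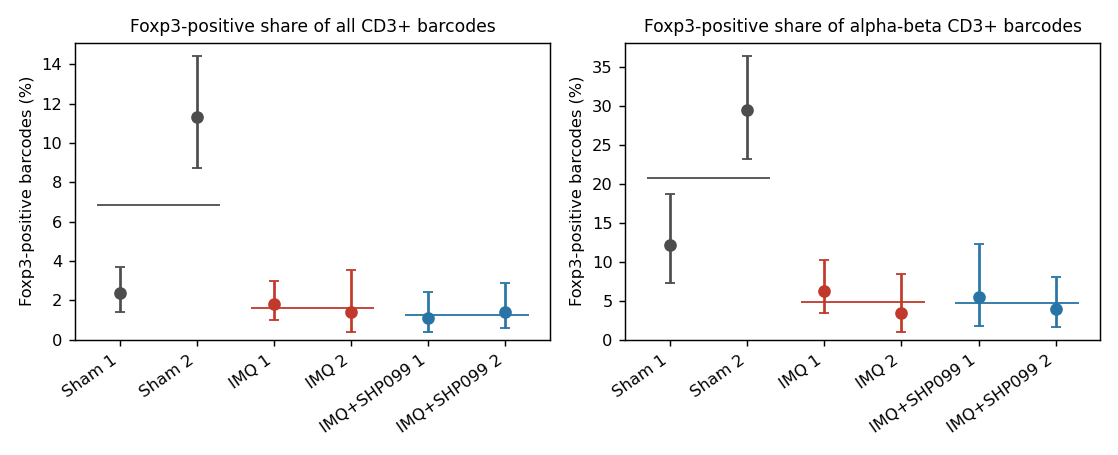
Percent of barcodes with at least 1 Foxp3 UMI in each of the 6 libraries, over all CD3+ barcodes (left) and over alpha-beta CD3+ barcodes (right); points are libraries, bars are exact 95% intervals for counting error and horizontal lines are group means. Sham 2, at 11.3% on the left and 29.4% on the right, lies above the other 5 libraries in both panels.

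Foxp3-positive barcodes carried an alpha-beta receptor. Trac was found in 18 of 18 and 55 of 58 in Sham, 13 of 14 and 4 of 4 with IMQ, and 6 of 6 and 7 of 7 with IMQ+SHP099. Trdc was found in 1 barcode in Sham 1 and 1 in IMQ+SHP099 1, and in none of the rest. Il17a was found in at most 1 Foxp3-positive barcode of any library. Cd4, a gene with few UMIs throughout, was found in 5, 29, 6, 3, 1 and 2 Foxp3-positive barcodes in the same order. Outside the CD3+ gate there were 21 Foxp3-positive barcodes, of which 2 held at least 4 of the 6 genes Il2ra, Ctla4, Icos, Tnfrsf4, Tnfrsf18 and Ikzf2.

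Within the gate most of those 6 genes were found together with Foxp3. At least 4 of the 6 were detected in 97 of the 107 Foxp3-positive barcodes (90.7%, 83.3% to 100% by library), and all 6 in 49. Among alpha-beta barcodes with no Foxp3 UMI, at least 4 were detected in 103 of 844 (12.2%, 5.75% to 22.3% by library). Among Trdc+ barcodes with no Foxp3 UMI the count was 57 of 2063 (2.76%). A barcode with no Foxp3 UMI can still be a Foxp3-expressing cell, since the Foxp3-positive barcodes held 229 Foxp3 UMIs in all. Median depth was 2994 to 5453.5 UMIs in Foxp3-positive and 1350 to 4778.5 in Foxp3-negative CD3+ barcodes by library, and the states were furthest apart in IMQ+SHP099 1, at 4734 against 1350.

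Helios (Ikzf2), a transcription factor of the Ikaros family, was detected in 91.6% of Foxp3-positive and 37.2% of Foxp3-negative CD3+ barcodes. The interleukin 2 receptor alpha chain (Il2ra) was detected in 72.9% against 16.0%. Both genes were thus also common without Foxp3, Ikzf2 more so than Il2ra. Among the costimulatory receptors of the tumour necrosis factor receptor family, OX40 (Tnfrsf4) was detected in 86.0% against 8.15%, and GITR (Tnfrsf18) in 89.7% against 28.2%. ICOS (Icos) was found in 85.0% against 18.4%. CTLA-4 (Ctla4), which competes with CD28 for CD80 and CD86, was found in 74.8% against 6.44%. All 6 were found in a larger share of Foxp3-positive barcodes. Of the remaining 3 inhibitory receptors, Pdcd1 and Lag3 had pooled shares that lay closer together, with Foxp3-negative shares that varied between libraries. Tigit was rare in both states but had the larger share in Foxp3-positive barcodes. Pdcd1 was detected in 13.1% against 8.11% (0.801% to 19.4% of Foxp3-negative barcodes by library), Lag3 in 10.3% against 11.7% (3.28% to 30.8%, highest in Sham 1), and Tigit in 5.61% against 0.702%, the last from 30 Tigit UMIs in all CD3+ barcodes. With each barcode thinned to 2000 UMIs, 57 Foxp3-positive barcodes remained, and Tnfrsf4 was found in 89.5% of them, Ikzf2 in 91.2% and Ctla4 in 59.6%. In thinned Foxp3-negative barcodes these genes were found in 2.52% to 9.07%, 11.1% to 31.4% and 1.96% to 9.70% by library. Pdcd1 was found in 3 of the 57 thinned Foxp3-positive barcodes (5.26%), and 34 of the 57 came from Sham 2. Within libraries the thinned Pdcd1 shares were 16.7% against 1.18% in Sham 1 and 2.94% against 0.885% in Sham 2. They were 10.0% against 13.5% in IMQ 1 and 0% against 11.7% in IMQ+SHP099 2. IMQ+SHP099 1 had 0% in both states and IMQ 2 no thinned Foxp3-positive barcode, so the order of Pdcd1 between the states differed by library.

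**Figure D2:**
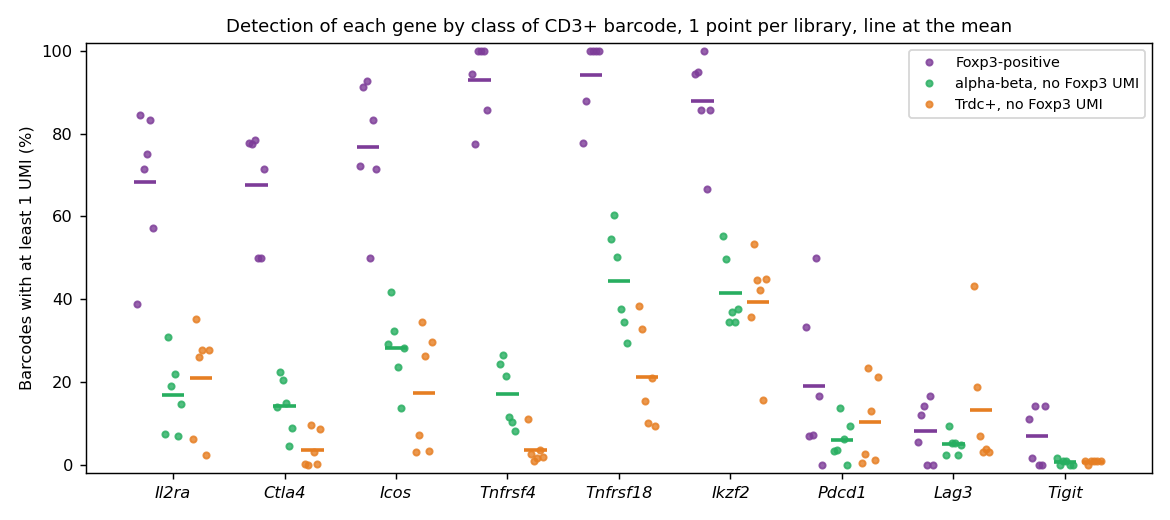
Percent of barcodes with at least 1 UMI of each gene, per library, in Foxp3-positive CD3+ barcodes and in alpha-beta and Trdc+ CD3+ barcodes with no Foxp3 UMI; points are the 6 libraries and short lines their means. For Ctla4 and Tnfrsf4 every Foxp3-positive point (at least 50% and 77.6%) lies above the points of both other classes.

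The test of this difference summed UMIs per library and Foxp3 state and fitted all genes with edgeR's quasi-likelihood test, with the library as a block and Benjamini-Hochberg adjustment. It called 927 of 8408 genes, 11.0%, of which 289 were higher and 638 lower in Foxp3-positive sums (560 genes without Sham 2), and the median log2 difference over all genes was -0.26. Of the 8 members tested, 6 were called and all 6 were higher in Foxp3-positive sums, and the median over the 8 was 2.88. Foxp3 chose the states and was not tested, and Tigit did not pass the filter on low counts, so these counts do not cover it.

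OX40 (Tnfrsf4) had the largest log2 difference of the 8. Its level in Foxp3-positive sums was 1186 and 806 CPM in Sham, 2504 and 1671 with IMQ, and 3048 and 1946 with IMQ+SHP099, while Foxp3-negative sums held 18.9 to 47.1. The states did not overlap, and the log2 difference was 5.38 (SE 0.32, edgeR adjusted p = 9.71e-60). For Ctla4 the Foxp3-positive levels were 917 and 968 in Sham, 1834 and 919 with IMQ, and 1411 and 1793 with IMQ+SHP099, against 3.17 to 84.9 in Foxp3-negative sums. Each library again showed the difference, which was 5.09 on the log2 scale (SE 0.34, edgeR adjusted p = 9.37e-49).

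The other 4 called members had smaller log2 differences. Tnfrsf18 stood at 348 to 1486 CPM in Foxp3-positive and 56.7 to 124 in Foxp3-negative sums, a log2 difference of 3.00 (SE 0.31, edgeR adjusted p = 6.62e-20). Icos stood at 601 to 1004 against 20.4 to 211, a log2 difference of 2.94 (SE 0.32, edgeR adjusted p = 6.64e-18). Il2ra stood at 182 to 708 against 6.00 to 116, a log2 difference of 2.82 (SE 0.33, edgeR adjusted p = 9.73e-16). Ikzf2 stood at 453 to 1467 against 44.3 to 200.2, a log2 difference of 2.57 (SE 0.30, edgeR adjusted p = 2.96e-15). None of these 4 ranges overlapped between the states either. Each of the 6 genes was higher in 6 of 6 libraries, and an exact sign-flip permutation test over libraries gave p = 0.03125 for each, the smallest that 6 libraries allow. The very small edgeR values rest on the spread that the model assigns to these sums. Limma-voom on the same sums, an alternative chosen after seeing them, called 624 genes and gave the 6 members adjusted p-values between 4.98e-08 (Tnfrsf4) and 7.73e-04 (Il2ra).

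PD-1 (Pdcd1) did not pass the test. Its Foxp3-positive levels were 55.3 and 26.0 CPM in Sham, 12.4 and 83.6 with IMQ, and 50.4 and 0 with IMQ+SHP099. Its Foxp3-negative levels were 1.96 and 6.75, 72.6 and 20.3, and 3.45 and 60.2. The Foxp3-positive sum was the higher one in both Sham libraries and in 1 library of each treated group. The log2 difference was 1.23 (SE 0.50, edgeR adjusted p = 0.0955), and the sign-flip permutation p was 0.656. This call depended on the barcodes used, because the difference passed the threshold without IMQ 1 (log2 difference 2.02, adjusted p = 0.00296), without IMQ+SHP099 2 (1.59, adjusted p = 0.0496) and with all deposited barcodes (1.52, adjusted p = 0.0247).

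LAG-3 (Lag3) did not pass the test either. Its log2 difference was 0.36 (SE 0.51, edgeR adjusted p = 0.764), it was higher in Foxp3-positive sums in 2 of 6 libraries, and the sign turned, to -0.45, when barcodes with RNA of other cell types were left out. Tigit was higher in Foxp3-positive sums in 4 of 6 libraries (exact sign-flip permutation p = 0.125), at 0 to 51.2 CPM against 0 to 1.24.

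Most Foxp3-negative CD3+ barcodes, 2063 of 3278, held Trdc, so the difference was also fitted within alpha-beta barcodes, a comparison chosen after seeing the data. There 673 of 6021 genes were called, 11.2%, and the 6 members tested were all called and higher in Foxp3-positive sums. Pdcd1, Lag3 and Tigit did not pass the filter on low counts there, so this count does not cover them. Tnfrsf4 differed by 4.19 on the log2 scale, Ctla4 by 3.98, Il2ra by 3.21, Tnfrsf18 by 2.52, Icos by 2.43 and Ikzf2 by 2.15. The values of Tnfrsf4 and Ctla4 were more than 1 log2 unit below those over all CD3+ barcodes, and that of Il2ra was above it. Within Cd4+ barcodes 0 of 602 genes, 0%, were called by edgeR, with 37 at an unadjusted p under 0.05. The 5 members tested were higher in Foxp3-positive sums there as well, by 1.84 for Tnfrsf4, 1.53 for Ctla4 and 1.38 for Tnfrsf18 (adjusted p = 0.160 each), by 1.98 for Ikzf2 (adjusted p = 0.434) and by 0.76 for Icos (adjusted p = 0.787).

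**Figure D3:**
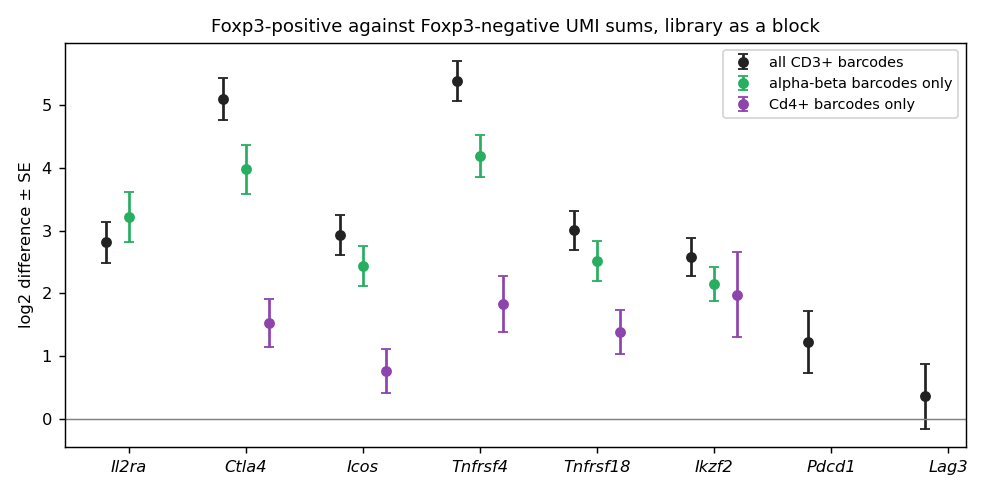
Log2 difference between Foxp3-positive and Foxp3-negative sums with its standard error for each member tested, over all CD3+ barcodes, within alpha-beta barcodes and within Cd4+ barcodes. Tnfrsf4 (5.38) and Ctla4 (5.09) lie highest over all CD3+ barcodes, and Pdcd1 (1.23) and Lag3 (0.36) lie lowest.

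The genes outside the panel with the largest differences upward, by size of the log2 difference in the fit over all CD3+ barcodes, were led by Il1rl1, the interleukin 33 receptor ST2 of tissue regulatory T cells, which differed by 5.66 and was at 283 ± 172 CPM (SD, n = 6 libraries) in Foxp3-positive and 4.83 ± 5.64 in Foxp3-negative sums. It was higher in 5 of 6 libraries and had no UMI in the Foxp3-positive sum of the sixth. Next came the chemokine receptor Ccr3 (log2 difference 5.23), the inhibitory lectin receptor Klrg1 (4.40), the receptor Cd5 that dampens T cell receptor signals (4.18), Slamf6 (3.95) and Cd4 itself (3.93). Last among the 10 were A630023P12Rik (3.72), the cytokine Il10 (3.56), Neb (3.48) and the integrin chain Itgb8, which helps to activate TGF-beta (3.46). The rule for these 10 genes was at least 20 CPM in the higher state and a UMI in at least 5 of 6 libraries.

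The 5 genes furthest down by the same rule had no UMI in any Foxp3-positive sum, so only a bound can be given, against a floor of 3 UMIs over the pooled Foxp3-positive barcodes. The bounds compare sums pooled over the 6 libraries, so they are not differences within a library. Sham 2 gave 384432 of the 674767 pooled Foxp3-positive UMIs. Foxp3-negative levels ran from 12.3 to 276 CPM for Cd207 and 17.2 to 203 CPM for Akr1c18 by library. In these pooled sums Cd207, the Langerhans cell lectin, was at least 27.3-fold lower, and Akr1c18 at least 12.1-fold lower. Tcrg-C4, a constant chain of the gamma-delta receptor, was at least 9.52-fold lower, Ctnnd2 at least 7.74-fold and Cntn1 at least 6.09-fold.

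Lists of related genes followed, to be read beside the 11.0% of all tested genes that this fit called. Of 31 other genes linked to regulatory T cells, 26 were tested, 15 were higher and 1 was lower in Foxp3-positive sums, with a median of 1.24 beside -0.26 over all genes. Besides Il1rl1, Il10 and Klrg1, the higher ones included 4-1BB (Tnfrsf9, 3.36), granzyme B (Gzmb, 3.05) and the transcription factor Batf (2.39). The lower one was the Notch ligand Jag1 (-1.75). Of the interleukin 2 pathway 11 of 12 genes were tested and 6 of these were not called, with a median of 0.72 over the 11. Higher were Il7r (1.51), the signal transducers Stat5a (1.41) and Stat5b (1.34) and the STAT5 target Cish (1.12), and lower was the survival gene Bcl2 (-1.91).

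Of 15 other inhibitory and costimulatory receptors, 10 were tested and 2 of these were not called (median 1.92). Besides Cd5, and Klrg1 and Tnfrsf9 which are on both lists, Cd27 (2.79), Cd28 (2.44) and the transcription factor Tox (1.41) were higher. Cd96 was lower (-4.34), and Cd160 had no UMI in Foxp3-positive sums and was at least 6.60-fold lower in the sums pooled over libraries. Of 15 ligands 7 were tested and 2 of these were not called (median -2.11). PD-L1 (Cd274, 1.42) was higher, and the MHC class II genes H2-Aa (-2.96) and H2-Ab1 (-2.49), which are LAG-3 ligands made by antigen-presenting cells, were lower with Nectin2 (-2.51) and galectin-3 (Lgals3, -2.11). Among 7 phosphatases and adaptors of inhibitory receptors (median 0.11), Sh2d1a (1.77) and Grb2 (1.20) were higher and SHP-1 (Ptpn6, -1.72) was lower. The other 4, with Ptpn11, the gene of SHP2, among them, were not called.

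RNA of myeloid cells and keratinocytes moved with the genes that were lower. The 8 myeloid markers, of which H2-Aa is one, summed to 78.0 to 593 CPM in Foxp3-positive sums and 733 to 22447 in all CD3+ barcodes, and the 4 keratinocyte markers to 41.8 to 6917 against 2056 to 16594. Both lists were lower in the Foxp3-positive sum of all 6 libraries. The 4 fibroblast markers, at 7.90 to 8665 CPM against 1454 to 9997, were lower in 4 of 6. Without barcodes in which other-lineage markers took over 1% of UMIs, 192 genes were higher and 387 lower. Within alpha-beta barcodes Nectin2 (-2.84) and Lgals3 (-2.37) were again lower, and H2-Ab1 (-0.22, edgeR adjusted p = 0.862) and Ptpn6 (-1.06, adjusted p = 0.155) were not called. Jag1, Stat5b, Bcl2, Cd160, Cd274, H2-Aa and Sh2d1a were not called there either or did not pass the filter. The other called genes named from the lists kept their calls and directions in alpha-beta barcodes. The part of other cells' RNA in the single lower calls was not tested.

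The levels in CD3+ barcodes were then compared between groups. Over all CD3+ barcodes, edgeR called 0 of 12446 genes, 0%, in IMQ against Sham, with 1059 at an unadjusted p under 0.05 and 187 called by DESeq2. It likewise called 0% in IMQ+SHP099 against IMQ (60 at an unadjusted p under 0.05, 2 called by DESeq2) and 0% in IMQ+SHP099 against Sham (738 and 104). No member and no gene of the 5 lists was called in these comparisons. With the replicate number as a block, edgeR called 175, 2 and 27 genes in the same order, with no member among those of the first and second comparison, where Lag3 in IMQ against Sham came nearest (log2 fold change -2.07, adjusted p = 0.0546). On simulated CD3+ sums with the same 12446 genes, 22% of 8-fold and 58% of 16-fold changes were recovered, so a member could change severalfold without being called.

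Pdcd1 had the largest log2 fold change of the 9 members tested in IMQ against Sham over all CD3+ barcodes. It was at 2.77 and 8.57 CPM in Sham, 71.8 and 21.1 with IMQ, and 3.99 and 59.7 with IMQ+SHP099. Both IMQ libraries lay above both Sham libraries, and of the IMQ+SHP099 libraries 1 lay with Sham and 1 between the IMQ libraries. The UMIs behind these levels numbered 23 and 35, 410 and 43, and 14 and 137, in 12, 15, 150, 26, 6 and 71 barcodes. IMQ against Sham gave a log2 fold change of 3.25 (SE 1.19, edgeR adjusted p = 0.546), and IMQ+SHP099 against IMQ gave -0.60 (SE 1.09, adjusted p = 1.000). Without a filter on low counts the first was 3.24 and passed the threshold (adjusted p = 0.0103).

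Lag3 went the other way. It was at 45.8 and 25.9 CPM in Sham, 11.0 and 5.88 with IMQ, and 7.40 and 7.41 with IMQ+SHP099. Both Sham libraries lay above all 4 treated libraries. The log2 fold change of IMQ against Sham was -2.10 (SE 0.59, edgeR adjusted p = 0.510), and without the filter on low counts it was -2.12 and passed (adjusted p = 0.0279). IMQ+SHP099 against IMQ gave -0.11 (SE 0.60). Lag3 UMIs were found in 232 and 65 barcodes in Sham, 50 and 11 with IMQ, and 20 and 16 with IMQ+SHP099. In Sham these were 30.2% and 12.7% of CD3+ barcodes, against 1.51% and 3.55% of barcodes outside the gate. The treated libraries came closer to the rate outside. The shares were 6.39% and 3.82% against 2.86% and 2.16% with IMQ, and 3.70% and 3.23% against 0.405% and 1.93% with IMQ+SHP099.

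Of the costimulatory receptors, Tnfrsf18 was at 128 and 154 CPM in Sham, 84.9 and 74.9 with IMQ, and 96.5 and 68.5 with IMQ+SHP099, again with both Sham libraries on top. Its log2 fold change of IMQ against Sham was -0.77 (SE 0.39, edgeR adjusted p = 0.665). Icos was at 30.7 and 168, 222 and 113, and 27.6 and 196 CPM in the same order, with a log2 fold change of 1.00 (SE 0.94). Tnfrsf4 was at 43.7 and 116, 81.7 and 60.7, and 54.9 and 35.3, with a log2 fold change of -0.00 (SE 0.46). For Icos and Tnfrsf4 the IMQ range overlapped that of Sham, and for Tnfrsf4 it lay inside it.

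Foxp3 itself ranged from 2.28 to 34.5 CPM and gave -1.67 (SE 0.89, edgeR adjusted p = 0.681) in IMQ against Sham. Ikzf2 ranged from 49.0 to 319 (log2 fold change -0.48, SE 0.62), Il2ra from 8.68 to 159.8 (0.27, SE 1.13) and Ctla4 from 19.1 to 129 (0.38, SE 0.74). Each of these 4 genes was highest in Sham 2, the library with the most Foxp3-positive barcodes. In IMQ+SHP099 against IMQ the log2 fold changes ran from -0.98 (Ctla4) to 0.20 (Tnfrsf18), 8 of the 9 were below 0, and their median was -0.48 beside 0.06 over all genes. By CPM only Tnfrsf4 had both IMQ+SHP099 libraries below both IMQ libraries. For Il2ra (21.1 and 117 CPM) and Ikzf2 (49.0 and 190) the shallow IMQ+SHP099 1 lay below both IMQ libraries and IMQ+SHP099 2 above both. Tigit, with 0.245 to 1.58 CPM, did not pass the filter.

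**Figure D4:**
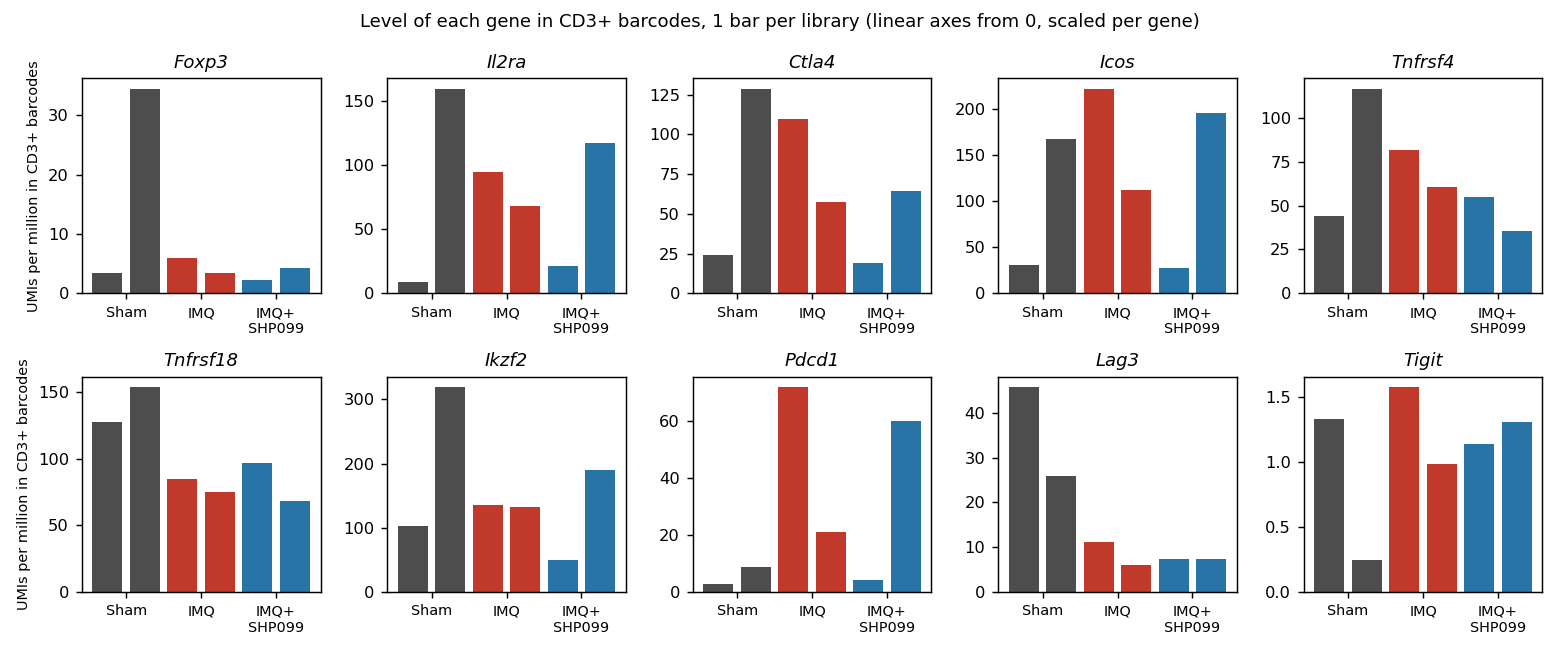
Level in CPM in CD3+ barcodes for each of the 10 genes, with 1 bar per library (2 per group) and a separate linear axis from 0 for each gene. Lag3 and Tnfrsf18 are highest in both Sham bars, both IMQ bars of Pdcd1 (71.8 and 21.1) stand above its Sham bars (2.77 and 8.57), and Foxp3 is highest in Sham 2.

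The genes lay in different T cells, and the cells that held Pdcd1 and Lag3 were mostly not Foxp3-positive. In Sham, 97.6% and 71.7% of the Lag3 UMIs within CD3+ barcodes lay in Trdc+ barcodes with no Foxp3 UMI. The share was 68.3% and 33.3% with IMQ, and 61.5% and 47.1% with IMQ+SHP099. Of Pdcd1 UMIs within CD3+ barcodes, 8.7% and 34.3% lay in such barcodes in Sham, 87.8% and 72.1% with IMQ, and 85.7% and 78.1% with IMQ+SHP099. Within CD3+ barcodes, Lag3 UMIs thus lay mainly in Trdc+ barcodes in Sham, and Pdcd1 UMIs did so in both treated groups. Of all Lag3 UMIs in Sham 1 and Sham 2, 74.5% and 22.0% were in CD3+ barcodes. Foxp3-positive barcodes were at most 11.3% of any library's CD3+ barcodes. Of the UMIs within a library's CD3+ barcodes, they held 32.3% to 65.1% for Tnfrsf4 and 18.6% to 83.6% for Ctla4. They held 57.7% and 70.7% of these Ctla4 UMIs in Sham but 23.6% and 18.6% in IMQ.

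**Figure D5:**
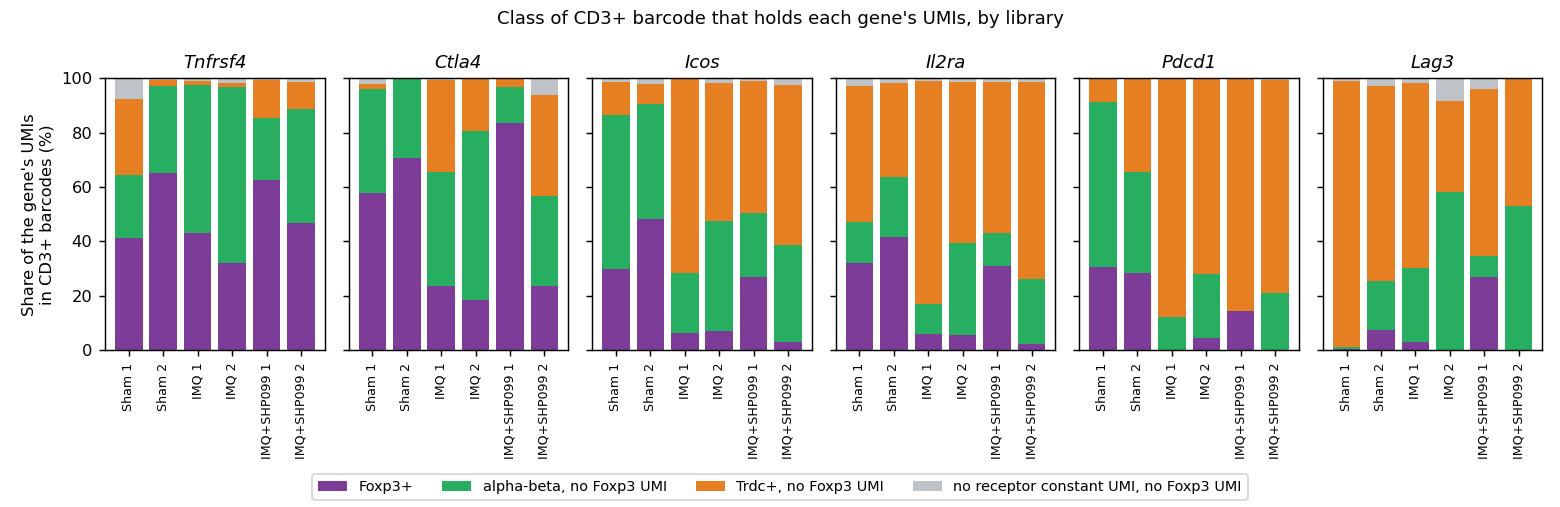
Share of each gene's UMIs in CD3+ barcodes that lay in Foxp3-positive barcodes, in alpha-beta or Trdc+ barcodes with no Foxp3 UMI, and in barcodes with no receptor constant chain UMI, stacked to 100% for each library. For Lag3 the Trdc+ part is 97.6% in Sham 1, and for Pdcd1 it is 8.7% in Sham 1 and 87.8% in IMQ 1.

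Trdc+ barcodes, 523 and 225 in Sham, 516 and 130 with IMQ, and 415 and 256 with IMQ+SHP099, were therefore fitted alone, a comparison chosen after seeing these shares. EdgeR called 0 of 10866 genes, 0%, in IMQ against Sham, with 1183 at an unadjusted p under 0.05 and 226 called by DESeq2, and 0% in IMQ+SHP099 against IMQ, with 97 at an unadjusted p under 0.05. Pdcd1 was at 0.400 and 7.76 CPM in Sham, 104 and 36.0 with IMQ, and 6.25 and 107 with IMQ+SHP099. Icos was at 6.20 and 31.7, 260 and 136, and 21.0 and 264. Lag3 was at 74.2 and 49.2, 12.4 and 4.64, and 7.15 and 8.0. For all 3 genes the Sham and IMQ libraries did not overlap, and for Pdcd1 and Icos IMQ+SHP099 1 lay near Sham while IMQ+SHP099 2 lay near IMQ 1.

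The make-up of the Trdc+ barcodes differed as well. Those with a UMI of Il17a or Il17f were 6 of 523 and 34 of 225 in Sham, 220 of 516 and 59 of 130 with IMQ, and 13 of 415 and 111 of 256 with IMQ+SHP099. Among Trdc+ barcodes with neither UMI, Pdcd1 was at 0.202 and 2.20 CPM in Sham and 7.55 and 2.59 with IMQ, from 1, 1, 4 and 1 barcodes. Icos was at 3.64 and 15.4 against 21.1 and 20.7 there, and Ctla4 at 0.808 and 0 against 3.02 and 5.18. The levels of Pdcd1, Icos and Ctla4 with IMQ were thus far lower in these barcodes than over all Trdc+ barcodes. They still lay above both Sham libraries. Lag3 stood at 74.9 and 55.8 in Sham and 30.9 and 10.4 with IMQ in these barcodes, with no overlap. Among Trdc+ barcodes with a UMI of Il17a or Il17f, Pdcd1 was at 21.4 and 49.1 CPM in Sham and 163 and 63.1 with IMQ. Ctla4 was at 0 and 0 against 97.2 and 44.1 there. Icos, at 278 and 153 against 408 and 229, overlapped. These Sham values rest on 6 and 34 barcodes.

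In the fit of all Trdc+ barcodes, IMQ against Sham gave log2 fold changes of 4.60 (SE 1.56) for Pdcd1, 3.62 (SE 1.19) for Icos and -2.76 (SE 0.58) for Lag3, with edgeR adjusted p-values of 0.381, 0.374 and 0.263. DESeq2 called all 3, with log2 fold changes of 4.44 (adjusted p = 0.0328), 3.60 (0.0291) and -2.80 (0.0143). Ctla4 gave 6.09 (SE 1.77, edgeR adjusted p = 0.321) from levels of 0.800 and 0 CPM in Sham and 61.3 and 26.7 in IMQ. Tnfrsf4 gave -2.78 and Tnfrsf18 -2.01, and both genes were also found in many keratin-rich barcodes, while Il2ra (0.81) and Ikzf2 (-0.05) were small beside their errors. Without a filter on low counts, edgeR called 956 genes in this contrast, with Pdcd1, Icos, Ctla4, Lag3, Tnfrsf4 and Tnfrsf18 among them (adjusted p between 7.37e-15 and 0.00395). With the replicate block 31 genes were called and no member. The median over the 8 members tested was 0.38 beside -0.02 over all genes. Within alpha-beta barcodes 0 of 9950 genes, 0%, were called in IMQ against Sham (629 at an unadjusted p under 0.05) and 0% in IMQ+SHP099 against IMQ (73), or 186 and 2 genes with the replicate block. Pdcd1 differed there by 0.80 (SE 1.16) and Lag3 by 0.15 (SE 0.76).

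The Pdcd1-positive barcodes overlapped with the interleukin 17 producers. Trdc was found in 2 of 12 and 6 of 15 of them in Sham, 120 of 150 and 17 of 26 with IMQ, and 6 of 6 and 54 of 71 with IMQ+SHP099. Il17a was found in 3 and 5 of them in Sham, 112 and 16 with IMQ, and 4 and 54 with IMQ+SHP099. Over the 6 libraries Foxp3 was found in 14 of the 280 Pdcd1-positive barcodes and Icos in 214. The 4 type 17 markers summed to 9.28 and 110 CPM in Sham, 2146 and 939 with IMQ, and 211 and 2223 with IMQ+SHP099, so they were high in the same libraries as Pdcd1.

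A split of CD3+ barcodes by Il17a or Il17f in place of Foxp3, also chosen after seeing the data, called 1506 of 9426 genes, 16.0%, in the same kind of edgeR fit, 581 higher and 925 lower in the positive sums. Of the 8 members tested, 3 were higher and 3 lower. Higher were Pdcd1 by 3.88 on the log2 scale (SE 0.28, adjusted p = 3.04e-06), Il2ra by 2.99 (SE 0.30, adjusted p = 3.27e-05) and Icos by 2.63 (SE 0.36, adjusted p = 3.81e-04). Lower were Lag3 by -3.31 (SE 0.54, adjusted p = 0.00123), Tnfrsf18 by -1.38 (SE 0.31, adjusted p = 0.00892) and Tnfrsf4 by -1.46 (SE 0.41, adjusted p = 0.0291). The call of Tnfrsf4 was lost without Sham 2, IMQ 1 or IMQ+SHP099 2 (adjusted p between 0.0621 and 0.1197). The count of genes fell to 681 without IMQ 1 and 969 without IMQ+SHP099 2. Ctla4 (0.76, adjusted p = 0.0966) and Ikzf2 (0.05, adjusted p = 0.901) were not called, and Foxp3 and Tigit did not pass the filter. Il2ra and Icos were therefore higher in both the Foxp3-positive and the interleukin 17-positive sums, Tnfrsf4 and Tnfrsf18 were higher in the first and lower in the second, and Pdcd1 was called only in the second. These splits were not independent, because all but at most 1 of a library's Foxp3-positive barcodes lay in its interleukin 17-negative sum. Foxp3-positive barcodes held 32.3% to 65.1% of the Tnfrsf4 UMIs within a library's CD3+ barcodes, and a split without them was not run. The interleukin 17-positive sum was only 15 barcodes in IMQ+SHP099 1 and 10 in Sham 1, where Tnfrsf4, at 148 CPM, was above its level over all CD3+ barcodes.

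Whether the difference between Foxp3 states itself differed by group was tested in the same fit. In IMQ against Sham 13 of 8408 genes, 0.155%, were called, and in IMQ+SHP099 against IMQ 10, 0.119%, with no member among them. Pdcd1 came nearest in IMQ against Sham, with a log2 difference between the group differences of -4.13 (SE 1.20, edgeR adjusted p = 0.181). Pdcd1 was higher in the Foxp3-positive sum of both Sham libraries, and of the IMQ libraries it was higher in IMQ 2 only. Ctla4 came nearest in IMQ+SHP099 against IMQ, at 2.21 (SE 0.71, adjusted p = 0.425). With 4 to 14 Foxp3-positive barcodes in each treated library, these values rest on few cells.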

How the data were processed

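Skin of pooled mice was sequenced as 6 droplet 3′ libraries. Raw UMI count matrices were deposited by the authors, who aligned reads to GRCm38 (mm10) with Cell Ranger 3.1.0. Barcodes with 100000 UMIs, 6500 genes or 10% mitochondrial UMIs or more were left out, as the study's methods state. No doublet caller was run, and an alternative left out barcodes with over 1% of UMIs from other cell types. Counts were summed per library over CD3+ barcodes, or per library and Foxp3 state, because cells of 1 library are not replicates. They were tested in R 4.3.3 with edgeR 4.0.16 (quasi-likelihood, TMM, filterByExpr, Benjamini-Hochberg over all genes tested, threshold 0.05), with DESeq2 1.42.0 and limma 3.58.1 as alternatives. A fit was checked on simulated counts. P-values measure the spread between pools. All 10 members were named, then genes by size of the Foxp3 difference and called genes of fixed lists. The members, lists and splits were chosen with earlier results of these data known. Exact permutation tests and Clopper-Pearson intervals used scipy 1.17.1. Libraries were grouped by their labels. The labels do not say what a replicate number marks, and libraries with the same number deviated together from their group means (correlations over 12446 genes of 0.283, 0.570 and 0.346 for the 3 pairs of groups), so counts of calls with the number as a block are given beside those without it. Sequences were not used.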

Additional observations from a re-analysis of the deposited data

Results flagged for a closer look

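The difference between Foxp3-positive and Foxp3-negative sums itself differed between groups for 13 genes in IMQ against Sham and for 10 genes in IMQ+SHP099 against IMQ, by the interaction term of the edgeR fit. These were 5 higher and 8 lower in the first and 3 higher and 7 lower in the second. No gene of the panel was among them. The treated libraries held 4 to 14 Foxp3-positive barcodes each, and the part of single barcodes in these calls was not tested.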

How the results depend on the processing

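The 6 members called between Foxp3 states (Il2ra, Ctla4, Icos, Tnfrsf4, Tnfrsf18 and Ikzf2) kept their direction and call in every alternative run except the Cd4+ one. The count of genes called there, 927, was 579 without barcodes over 1% of other-lineage UMIs, 284 with barcodes thinned to 2000 UMIs, 609 with DESeq2, 1467 with no filter, 318 with no library block and 0 in Cd4+ barcodes, and 560 to 929 leaving out 1 library. In CD3+ barcodes the counts of 0 for IMQ against Sham, IMQ+SHP099 against IMQ and IMQ+SHP099 against Sham became 187, 2 and 104 with DESeq2 and 399, 6 and 218 with no filter. They were 3, 0 and 2 with all deposited barcodes, 1, 0 and 1 with thinning, and 1, 0 and 0 without other-lineage barcodes, and stayed at 0 leaving out any library. With a replicate block they were 175, 2 and 27. The block changed no call of a member in the comparisons where members were read. The interleukin 17 split, with 1506 genes, gave 823 with at least 2 CD3 UMIs, 949 without other-lineage barcodes, 670 with thinning and 488 with no library block. IMQ against Sham went from 0 in Trdc+ barcodes to 31 with the block and 41 with only both groups fitted, and from 0 in alpha-beta barcodes to 99 with DESeq2, 503 with no filter, 186 with the block and 78 without other-lineage barcodes. The Foxp3-positive share of IMQ minus Sham was -34.0 points over Cd4+, -16.0 over alpha-beta and -0.347 over all barcodes, and -9.74 to -0.757 leaving out 1 library. IMQ+SHP099 minus IMQ was -0.597 with at least 2 CD3 UMIs, 0.639 with thinning, 16.9 over Cd4+ and -0.0287 over all barcodes, and -0.529 to -0.127 leaving out 1 library.

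Signs of uncalled members turned as follows, and the cause was not tested. In IMQ against Sham, thinning gave Il2ra -0.074 and Ctla4 -0.11, and Tnfrsf4 was 0.22 with all deposited barcodes, 0.030 with RLE size factors and 0.031 with DESeq2. In IMQ+SHP099 against IMQ, thinning gave Foxp3 0.037, Il2ra 0.032 and Tnfrsf18 -0.12, and leaving out other-lineage barcodes gave Foxp3 0.026 and Lag3 0.41. Ikzf2 in Trdc+ barcodes was 0.35 without other-lineage barcodes, 0.057 with all deposited barcodes, 0.48 with thinning and 0.069 with the block. Lag3 between Foxp3 states was -0.45 without other-lineage barcodes. Ikzf2 in the interleukin 17 split was -0.40 with at least 2 CD3 UMIs, -0.50 without other-lineage barcodes, -0.42 with thinning and -0.0068 with no filter. Leaving out 1 library, IMQ against Sham ran from -2.46 to 0.25 for Foxp3, -0.61 to 3.02 for Il2ra, -0.25 to 1.58 for Ctla4, -0.35 to 0.49 for Tnfrsf4 and -0.90 to 0.17 for Ikzf2. IMQ+SHP099 against IMQ ran from -0.85 to 0.066 for Foxp3, -1.72 to 0.48 for Il2ra, -2.37 to 0.18 for Icos, -0.26 to 0.51 for Tnfrsf18, -1.21 to 0.47 for Ikzf2, -3.32 to 0.62 for Pdcd1 and -0.48 to 0.51 for Lag3. In Trdc+ barcodes Il2ra ran from -0.14 to 3.74 and Ikzf2 from -0.40 to 0.34, between Foxp3 states Lag3 ran from -0.74 to 0.98, and in the interleukin 17 split Ikzf2 ran from -0.060 to 0.17.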
